A study of Mus musculus with 24 samples.

Results

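This report describes 10 genes known for axon growth and regeneration, *Sprr1a*, *Gap43*, *Basp1*, *Stmn2*, *Stmn4*, *Flrt3*, *Csrp3*, *Reg3b*, *Chl1* and *L1cam*, in mouse dorsal root ganglia (DRGs) after a lesion of the sciatic nerve. They were taken by name from the gene column of the arrays, with all their probes, and account for 14 of 41174 probes and 10 of 27398 gene names. RNA of L4 and L5 DRGs was measured in adult male C57BL/6J mice that were either *Nfil3* -/- (KO) or their *Nfil3* +/+ littermates (WT). The left sciatic nerve was cut and its ends were sutured together, and DRGs were taken at day 2 or day 5 post-lesion, while control DRGs came from the non-injured side. Each of the 6 groups (WT control, WT day 2, WT day 5, KO control, KO day 2 and KO day 5) has 4 samples, described by the study as independent replicates, 2 labeled with Cy3 and 2 with Cy5. The KO allele is a germline deletion, made by crossing lox mice with mice that carry Cre under a human CMV promoter, so that *Nfil3* was missing from every cell type and not from neurons alone. No label ties a control DRG to the injured DRG of the same mouse, and the samples were treated as unpaired.

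The label of the samples names DRG neurons, but the RNA is that of whole ganglia. All 11 neuronal, 6 satellite glia, 6 Schwann cell and 8 macrophage markers on the fixed lists were detected above background. In such tissue a lower signal from fewer cells of a type and from less RNA per cell cannot be told apart. The share of probes marked as above background ranged from 54.6% to 72.4% over the samples, without any saturated spot. *Nfil3* itself, measured with its brighter probe as the check of the genotype labels, had log2 intensities of 8.44 to 11.08 in the WT groups and was above background in all WT samples. In KO mice it was above background in 1 control, 2 day 2 and 2 day 5 samples. These day 2 samples (5.30 and 6.22) and day 5 samples (5.81 and 5.66) each shared their array with a lesioned WT sample. Lesioned KO samples that shared theirs with a KO sample had 4.14 and 3.03 at day 2, and 3.40 and 2.82 at day 5. The part of the array partner in these signals was not tested. The highest KO value, 7.59, belonged to the library labelled KO control replicate 4, and the other KO controls had 2.94, 3.80 and 4.37. Its array partner was a KO day 5 sample with 3.40. KO control replicate 4 is a control by its title and source name, whereas its day label gives 5. It was kept as a control, and values without it are given where it matters.

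Sensory neurons of the DRG send an axon to the periphery that can regrow after injury, and the cell body responds to the injury by switching on a set of regeneration-associated genes. Products of these genes act in the growth cone, the motile tip of the axon, where membrane-bound proteins such as GAP43 and BASP1 act on actin, stathmins bind tubulin and destabilize microtubules, and adhesion molecules of the L1 family hold and guide the axon. Others, such as SPRR1A and REG3B, are better known from epithelia and are made by neurons after injury. NFIL3 is a basic leucine zipper transcription factor that represses its targets, and the study asked whether its loss changes the response of such genes.

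Each gene was read by probes of 60 bases. The probes below show what was measured for the growth cone proteins *Gap43* and *Basp1*, for *Csrp3*, whose signal was near background, and for *L1cam*, the member with the smallest response. All lie in the coding part of their transcripts and are given in lower case from 5′ to 3′ in the sense of the transcript. Their positions in the array's annotation (mm9) are chr16:42292428-42340593 on the minus strand (*Gap43*, across an intron), chr15:25294572-25294631 on the minus strand (*Basp1*), chr7:56086063-56087977 on the minus strand (*Csrp3*, across an intron) and chrX:71100378-71100437 on the minus strand (*L1cam*).
Gap43: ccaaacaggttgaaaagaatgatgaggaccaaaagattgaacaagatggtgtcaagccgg
Basp1: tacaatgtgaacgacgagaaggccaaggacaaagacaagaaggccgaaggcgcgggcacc
Csrp3: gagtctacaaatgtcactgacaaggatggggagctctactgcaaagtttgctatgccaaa
L1cam: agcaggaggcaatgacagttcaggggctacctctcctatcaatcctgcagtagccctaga

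RefSeq promoters (GRCm38.p6, 250 bases before to 50 after the start) were at hand for 7 of the 10 genes, and not for *Gap43*, *Stmn2* and *Stmn4*. *Sprr1a* and *Reg3b* are shown, since they had the largest change and the latest rise of the genes. Their 250 bases before the start lie at chr3:92485882-92486131 on the minus strand (*Sprr1a*) and chr6:78370635-78370884 on the plus strand (*Reg3b*), with capitals for matches to the AP-1 motif TGACTCA, read as TGAGTCA on the other strand, and to the TATA box TATAAA.
Sprr1a: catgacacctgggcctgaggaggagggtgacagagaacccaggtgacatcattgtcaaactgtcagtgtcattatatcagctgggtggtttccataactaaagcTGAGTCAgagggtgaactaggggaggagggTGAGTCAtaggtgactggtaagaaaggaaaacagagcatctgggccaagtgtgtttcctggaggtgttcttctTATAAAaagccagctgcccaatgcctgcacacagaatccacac
Reg3b: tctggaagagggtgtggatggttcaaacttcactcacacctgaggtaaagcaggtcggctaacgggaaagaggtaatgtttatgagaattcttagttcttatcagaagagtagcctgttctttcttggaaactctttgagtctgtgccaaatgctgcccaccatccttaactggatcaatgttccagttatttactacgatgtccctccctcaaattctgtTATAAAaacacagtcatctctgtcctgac

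On both strands the AP-1 letters were found in 5.20% of 32851 promoter windows of this length, and among the 7 genes in *Sprr1a*, at -146 and -116 from the start. The TATA box letters were found in 13.6% of windows and in *Sprr1a* (-43) and *Reg3b* (-29). The NFIL3 letters TTACGTAA (0.119% of windows) and TTATGTAA (0.938% of windows) and the CRE letters TGACGTCA (1.79% of windows) were in 0 of the 7 genes' windows. Letters this rare are seldom found in any 7 genes, and sites outside the windows were not searched. *Gap43*, which the study names as a gene bound by NFIL3, had no window here. The motifs searched did not overlap in these matches.

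Of the 10 genes, 8 rose after the lesion: *Gap43*, *Basp1*, *Stmn2*, *Stmn4*, *Sprr1a*, *Flrt3*, *Chl1* and *Reg3b*. *L1cam* and *Csrp3* did not pass the test, and no member fell. The test was an F test in limma of the day 2 and day 5 changes averaged over WT and KO, with p-values adjusted over all probes and a threshold of 0.05. Each gene was represented by its brightest probe. By this test 26.3% of all genes passed, and 11.5% passed and were higher on average. In WT mice 6 members were higher at day 2 and 8 at day 5, where 5.16% and 6.43% of all genes were called higher. In KO mice 6 and 8 members were higher, against 5.54% and 6.14% of all genes. The median log2 change of the 10 genes was 1.29 in WT and 1.06 in KO mice at day 2, and 2.01 and 2.02 at day 5. With *Csrp3* and *Reg3b*, whose controls were not well above background, at their bounds, the KO median at day 2 was 0.95 and the others were the same. The median of all genes in these comparisons lay between -0.03 and -0.01. In all, 6 of the 10 genes passed as higher in each of these 4 comparisons, as did 3.2% of all genes. The lesioned samples lay above all controls of their genotype for 8 members in WT at day 2, 8 in WT at day 5, 6 in KO at day 2 and 8 in KO at day 5, against 7.23%, 8.97%, 6.82% and 9.16% of all genes. The members were chosen as genes of regeneration, and the counts describe them.

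**Figure D1:**
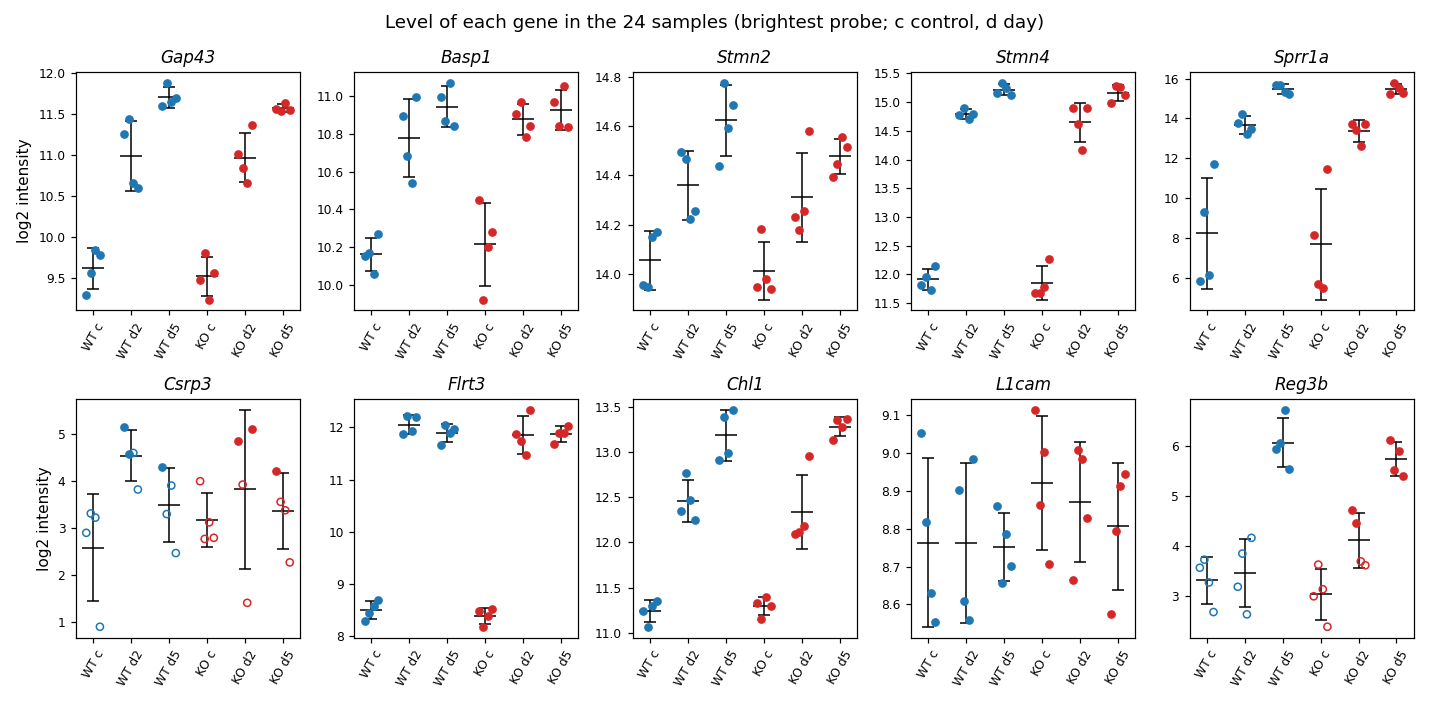
Log2 intensity (vertical axis) of each of the 10 genes in the 24 samples, by group (horizontal axis; c control, d2 and d5 days post-lesion), with WT in blue, KO in red, and open circles for samples not well above background. Bars give the mean and SD of 4 samples, and the *Sprr1a* controls spread from 5.48 to 11.71 while its day 5 samples lie between 15.20 and 15.80.

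Of the growth cone proteins, *Gap43*, a membrane-bound protein of growing axons, was higher in every lesioned sample than in every control of its genotype. Its log2 intensity in WT mice was 9.29, 9.56, 9.85 and 9.78 in controls, 11.26, 11.44, 10.65 and 10.60 at day 2, and 11.59, 11.88, 11.64 and 11.69 at day 5. The KO controls had 9.48, 9.81, 9.24 and 9.57, and lesioned KO mice had 11.01, 10.84, 10.66 and 11.36 at day 2, and 11.56, 11.53, 11.64 and 11.55 at day 5. The day 5 samples lay closer together (SD 0.13 in WT and 0.05 in KO, n = 4) than the day 2 samples (SD 0.42 and 0.30, n = 4). In WT mice the mean rose 2.58-fold by day 2 and 4.23-fold by day 5 (log2 change 1.37 and 2.08, standard error 0.18, limma adjusted p = 4.28e-05 and 1.06e-07). In KO mice the rise was 2.72-fold and 4.13-fold (limma adjusted p = 2.05e-05 and 1.42e-07).

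*Basp1*, which is related to GAP43 in function and also lies under the growth cone membrane, rose less. WT controls lay between 10.06 and 10.27 and KO controls between 9.93 and 10.45. The lesioned samples of both genotypes lay between 10.54 and 11.07, above all controls. WT mice had log2 changes of 0.61 (day 2) and 0.78 (day 5), with adjusted p = 9.03e-04 and 5.47e-05 in limma. In KO these were 0.66 and 0.71 (limma adjusted p = 4.41e-04 and 1.69e-04, standard error 0.11).

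The stathmins *Stmn4* and *Stmn2* differed widely in the size of their change. *Stmn4* (RB3), a neuronal member of the family, had 11.82, 11.96, 11.72 and 12.14 in WT controls, 14.77, 14.90, 14.70 and 14.80 at day 2, and 15.15, 15.34, 15.25 and 15.13 at day 5. KO mice had 11.68, 11.67, 11.78 and 12.28 in controls, 14.90, 14.62, 14.17 and 14.89 at day 2, and 14.98, 15.29, 15.25 and 15.13 at day 5. Lesioned samples were all above the controls. WT mice had a rise of 7.36-fold (day 2) and 9.88-fold (day 5), and KO mice of 6.94-fold and 9.93-fold (log2 change 2.79 to 3.31, standard error 0.15, limma adjusted p at most 1.68e-10).

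*Stmn2* (SCG10), a growth cone stathmin with a high level in uninjured neurons, gave log2 intensities of 13.95 to 14.17 in WT and 13.94 to 14.18 in KO controls. At day 2 these were 14.22 to 14.49 in WT and 14.18 to 14.58 in KO, and at day 5 14.44 to 14.78 in WT and 14.39 to 14.56 in KO. The day 5 samples lay above all controls. The day 5 rise was 0.57 in WT and 0.47 in KO mice (standard error 0.10, limma adjusted p = 7.38e-04 and 0.00463), whereas the day 2 differences of 0.31 and 0.30 did not pass (adjusted p = 0.0671 and 0.0695). These day 2 differences lay near the threshold and passed in 8 of 15 other settings in WT and in 7 of 15 in KO mice. The call of *Stmn2* in KO mice at day 5 was lost when controls sharing an array with a lesioned sample were left out (0.40, limma adjusted p = 0.106). A second, dim probe from a cDNA clone of the locus was above background in 6 of 24 samples. In WT mice its fitted level was 2.14-fold (day 2) and 2.12-fold (day 5) higher than in controls (limma adjusted p = 0.00220 and 0.00179). No WT control, 2 WT day 2 samples and 1 WT day 5 sample were above background, so these folds are no minimum. Among KO samples the day 2 group was not above background, with a fitted level 1.15-fold lower than control (limma adjusted p = 0.655). The day 5 difference was 0.15 (limma adjusted p = 0.779), so that the *Stmn2* probes disagree. The time*genotype interaction of the dim probe had an unadjusted p of 0.00135 and an adjusted p of 1 in limma.

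*Sprr1a*, a small proline-rich protein of the cornified envelope of keratinocytes that promotes neurite outgrowth, changed most of the 10 genes. In WT mice it had 5.82, 9.28, 6.11 and 11.71 in controls, 13.75, 14.24, 13.21 and 13.48 at day 2, and 15.68, 15.70, 15.31 and 15.20 at day 5. KO controls had 8.15, 5.66, 5.48 and 11.43, and lesioned KO samples had 13.72, 13.43, 12.60 and 13.73 at day 2, and 15.25, 15.80, 15.53 and 15.27 at day 5. Every lesioned sample was above every control, and the spread of the controls (SD 2.80 in WT and 2.78 in KO, n = 4) was far wider than that of the lesioned groups (SD 0.25 to 0.53, n = 4). The changes on the log2 scale were 5.44 (day 2) and 7.24 (day 5) for WT and 5.69 and 7.78 for KO mice (standard error 1.11, limma adjusted p = 0.00287, 1.34e-04, 0.00188 and 6.74e-05). As folds these are 43.3, 151.4, 51.7 and 220.5.

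The spread of the *Sprr1a* controls followed the other sample on their array. Each array carried a different sample in each channel, and 2 controls of each genotype shared an array with another control, while the others shared theirs with a day 2 or a day 5 sample. *Sprr1a* was 5.82 and 6.11 (WT) and 5.66 and 5.48 (KO) in controls that shared an array with a control. It was 9.28 (WT) and 8.15 (KO) beside a day 2 sample, and 11.71 (WT) and 11.43 (KO, the library labelled KO control replicate 4) beside a day 5 sample. The means differed by 4.52 in WT and by 4.22 in KO mice, where the median over all genes was -0.01 and 0.003, and 4.76% and 4.34% of genes differed by more than 1. Before normalization, the background-subtracted *Sprr1a* signal of these controls was 3.03% (WT) and 3.18% (KO) of that of the day 2 sample on the array, and 9.65% (WT) and 7.88% (KO) of that of the day 5 sample. The part of the array partner in the control level was not tested.

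**Figure D2:**
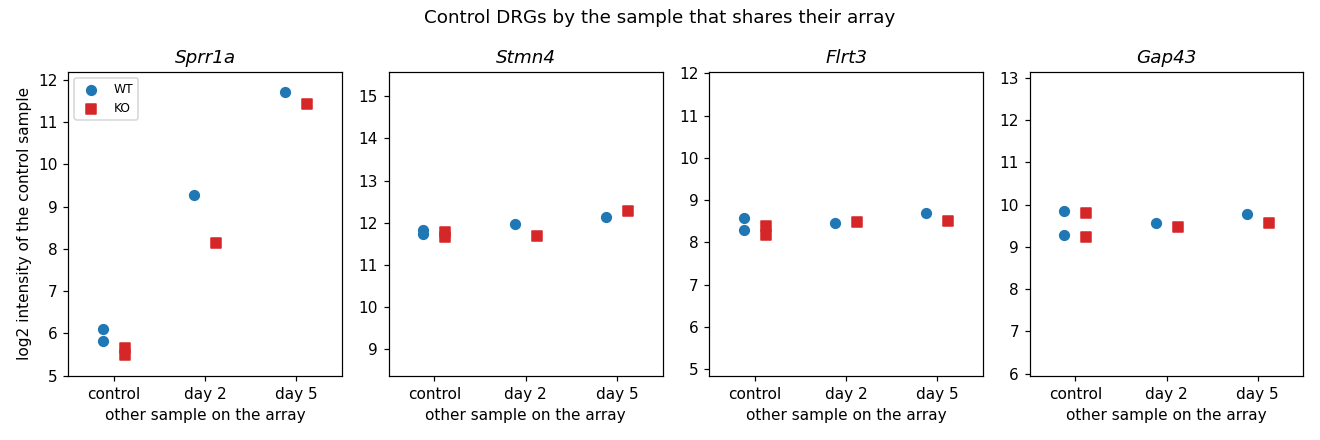
Log2 intensity (vertical axis) of *Sprr1a*, *Stmn4*, *Flrt3* and *Gap43* in the 8 control samples, by the sample that shared their array (horizontal axis; control, day 2 or day 5), with WT as circles and KO as squares, and an axis span of the same length in each panel. *Sprr1a* rises from between 5.48 and 6.11 to 11.43 and 11.71 along the axis, while *Stmn4* stays between 11.67 and 12.28.

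For the other members the same difference between controls was between -0.16 and 0.30, by the brightest probes of genes above background in all samples. Of these probes, the largest shifts toward the partner were those of *Basp1* in KO (0.30) and *Stmn4* in WT and KO (0.28 and 0.25). The second *Flrt3* probe, also above background in all samples, had 0.40 in KO and -0.06 in WT. With only the controls that shared an array with a control, *Sprr1a* rose by 7.70 (day 2) and 9.50 (day 5) for WT and by 7.80 and 9.90 for KO mice (standard error 0.31, limma adjusted p at most 7.93e-10). The other members, *Csrp3* aside, moved by at most 0.35. Without the library labelled KO control replicate 4, the KO changes of *Sprr1a* were 6.94 and 9.04, no call of a KO lesion change was gained or lost among the 10 genes, and the other members moved by at most 0.22.

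Of 6 keratinocyte markers, *Lor* passed the lesion test (0.45 at day 5, limma adjusted p = 0.00203) and the other 5 did not. The summed intensity of the list lay between 408 and 514 in controls and between 479 and 606 at day 5.

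*Csrp3*, a LIM protein of the Z disc of striated muscle that is also made by injured neurons, was above background in 6 of 24 samples and in 0 of 8 controls. In WT mice it had 2.89, 3.30, 3.22 and 0.90 in controls, 5.13, 4.57, 4.59 and 3.81 at day 2, and 4.28, 3.29, 3.90 and 2.46 at day 5. KO controls had 3.99, 2.76, 3.11 and 2.79, and lesioned KO samples had 4.84, 3.92, 1.41 and 5.10 at day 2, and 4.21, 3.55, 3.37 and 2.26 at day 5. WT day 2 samples were all above the WT controls, and KO groups overlapped. As fitted here, with Edwards background correction, no change passed the test. At day 2 its fitted level was 3.86-fold that of controls in WT (limma adjusted p = 0.0774) and 1.57-fold in KO mice (limma adjusted p = 0.629). The controls were not well above background and only 2 WT and 2 KO day 2 samples were, so these folds are no minimum. The WT day 2 change lay near the threshold. With the same correction it passed in some alternatives, such as the filter on dim probes (limma adjusted p = 0.0468) and dye as a covariate (limma adjusted p = 0.0487). The call and the fitted size also changed with the background correction. Without any correction the fitted day 2 difference was 0.37 in WT and 0.31 in KO (adjusted p = 0.00735 and 0.0234), and with the scanner software's processed signals it was 2.03 and 2.02 (adjusted p = 0.0209 and 0.0201).

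Skeletal muscle markers were present at very different levels between samples. The summed intensity of the 10 muscle markers was 23035 in KO day 5 replicate 1, 10817 in KO day 2 replicate 4, 5553 in WT control replicate 1 and 3892 in KO day 2 replicate 1, and at most 1367 in the other samples. *Csrp3* was above background in the first, second and last of these (4.21, 5.10 and 4.84), and not in the WT control (2.89). It was also above background in WT day 2 replicates 1 and 2, where the muscle sums were 379 and 739. None of the 10 muscle markers passed the lesion test, and the part of muscle RNA in the *Csrp3* signal was not tested.

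Of the cell surface proteins, *Flrt3*, a leucine-rich repeat transmembrane protein with a part in FGF signaling and neurite outgrowth, was as high at day 2 as at day 5. It had 8.28, 8.45, 8.58 and 8.70 in WT controls, 11.88, 12.21, 11.92 and 12.20 at day 2, and 11.66, 12.04, 11.90 and 11.96 at day 5. KO mice had 8.47, 8.18, 8.39 and 8.51 in controls, 11.88, 11.73, 11.46 and 12.33 at day 2, and 11.68, 11.89, 11.89 and 12.03 at day 5. Lesioned samples of both days overlapped and lay far above all controls. The log2 rise was 3.55 (day 2) and 3.39 (day 5) for WT and 3.46 and 3.49 for KO mice, an 11.7-fold change in WT at day 2 (standard error 0.15, limma adjusted p at most 1.70e-11). A second probe in the same transcript gave log2 changes of 3.23, 3.34, 3.27 and 3.36 in the same order of groups.

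*Chl1*, the close homolog of L1, is an adhesion molecule of the L1 family, and it rose at day 2 and further by day 5. It had 11.25, 11.07, 11.29 and 11.35 in WT controls, 12.34, 12.77, 12.47 and 12.25 at day 2, and 12.91, 13.38, 12.99 and 13.47 at day 5. KO mice had 11.33, 11.16, 11.39 and 11.30 in controls, 12.10, 12.11, 12.18 and 12.95 at day 2, and 13.13, 13.36, 13.27 and 13.36 at day 5. The 3 groups of each genotype did not overlap. Changes were 1.22 and 1.94 for WT and 1.04 and 1.99 for KO mice (log2, standard error 0.17, limma adjusted p = 5.91e-05, 8.37e-08, 3.09e-04 and 6.43e-08). A second probe of the transcript gave larger changes (1.77 and 2.47 in WT, 1.69 and 2.57 in KO), and a dim probe from a cDNA clone of the locus also passed in all 4 comparisons (limma adjusted p at most 0.0182).

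*L1cam*, the founding member of that family, differed little between groups. Its log2 intensity was 8.55 to 9.05 in WT and 8.71 to 9.11 in KO controls, 8.56 to 8.98 and 8.66 to 9.01 at day 2, and 8.66 to 8.86 and 8.57 to 8.94 at day 5. All groups overlapped. The change with the largest size was -0.12 in KO mice at day 5 (limma adjusted p = 0.693), and the 95% confidence intervals of the 4 lesion changes reached from -0.39 to 0.27.

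*Reg3b*, a secreted C-type lectin of the pancreas and gut that injured neurons also release, was the late member. In WT mice it had 3.57, 3.73, 3.27 and 2.68 in controls, 3.19, 3.85, 2.64 and 4.16 at day 2, and 5.92, 6.06, 6.71 and 5.54 at day 5. KO controls lay between 2.39 and 3.63, and lesioned KO samples had 4.72, 4.45, 3.69 and 3.61 at day 2, and 6.12, 5.52, 5.90 and 5.39 at day 5. No control and no WT day 2 sample was above background, 2 of 4 KO day 2 samples were, and all day 5 samples were. With Edwards background correction it was at least 6.71-fold higher for WT at day 5 (limma adjusted p = 1.65e-05). For KO mice it was at least 5.58-fold higher (limma adjusted p = 2.34e-05). Both are bounds because the controls were not well above background. The size depended on the correction. With normexp the fitted day 5 log2 change was 0.83 in WT and 0.70 in KO, and with processed signals it was 3.76 and 3.87. At day 2 the fitted level of *Reg3b* in KO mice was 2.11-fold that of controls and did not pass (limma adjusted p = 0.0538). The KO groups overlapped, and this fold is no minimum. In WT mice both groups were below background. The KO day 2 change passed in 8 of 15 other settings and in 7 of 24 fits with a sample left out. Of 5 acinar markers of the pancreas, *Cela1* and *Pnlip* passed the lesion test with 1.01 and 1.22 at day 5 (limma adjusted p = 1.41e-06 and 4.70e-10), while *Cpa1* was above background in 0 samples and *Prss2* in 5 of 24, and the summed intensity of the list was 413 to 570 in WT controls and 964 to 1114 in WT day 5 samples. Their part in the *Reg3b* change was not tested.

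**Figure D3:**
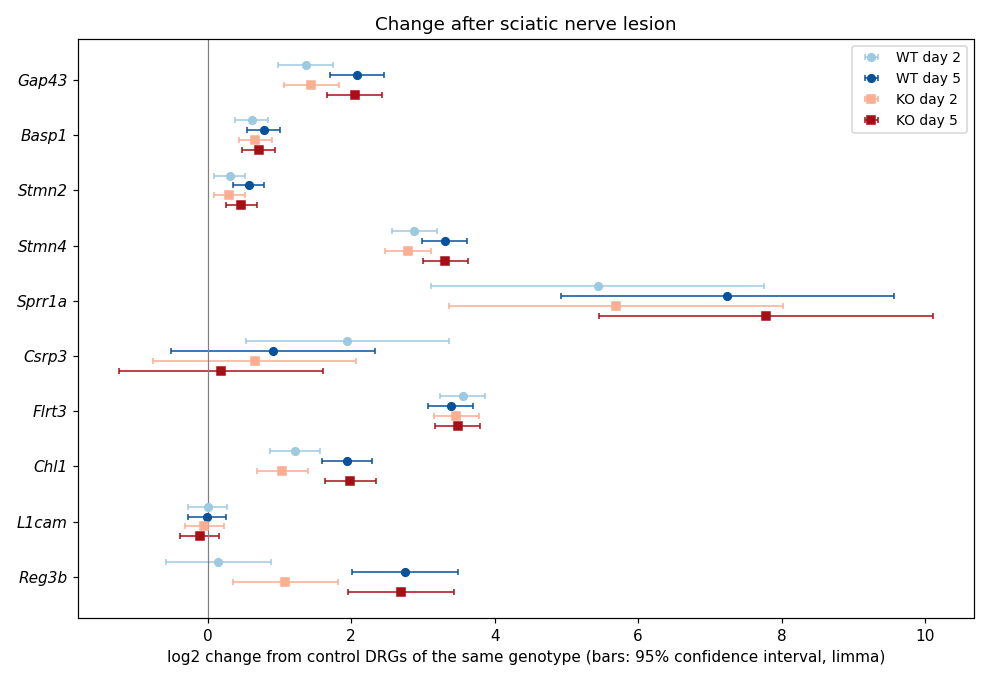
Log2 change from control DRGs of the same genotype (horizontal axis) for each gene, at day 2 (light) and day 5 (dark) in WT (circles) and KO (squares), with 95% confidence intervals from limma. *Flrt3* overlaps between days, *L1cam* stays at 0, and the points of *Csrp3* and *Reg3b* are fitted differences from controls not well above background.

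The genes also differed in how much of the day 5 change was reached at day 2. As a share of the day 5 log2 change in WT and KO mice, *Flrt3* had reached 104.9% and 99.4% at day 2, *Basp1* 78.9% and 93.0%, *Stmn4* 87.2% and 84.4%, *Sprr1a* 75.1% and 73.1%, *Gap43* 65.7% and 70.6%, and *Chl1* 62.6% and 52.4%. The shares of *Stmn2* were 53.7% and 64.2%, from day 2 differences that did not pass. Those of *Sprr1a* rest on all controls, whose level followed the array partner. With only the controls that shared an array with a control, its day 2 and day 5 changes were 7.70 and 9.50 in WT mice. In KO mice they were 7.80 and 9.90, and the day 2 share was larger in both genotypes. No share is given for *Reg3b* and *Csrp3*, whose controls were not well above background. Tested directly, day 5 minus day 2 passed in WT mice for *Reg3b* (2.60, at least 6.06-fold, limma adjusted p = 9.88e-04), where 0.599% of all genes were called higher. For KO mice it passed for *Chl1* (0.95, adjusted p = 0.00606) and *Reg3b* (1.61, adjusted p = 0.0309), against 0.756% of all genes. *Gap43* (0.71) and *Chl1* (0.73) in WT mice had adjusted p-values of 0.0974 and 0.0513. With only the controls that shared an array with a control, the *Sprr1a* difference of 1.81 in WT and 2.09 in KO mice, which did not pass with all controls (adjusted p = 0.685 and 0.579), passed as well (limma adjusted p = 0.00333 and 8.82e-04).

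Between KO and WT mice no difference in the 10 genes passed the test. KO and WT mice were compared in control, day 2 and day 5 DRGs, and 0 of 10 genes passed in each, by limma with adjusted p as well as at an unadjusted p under 0.05. Over all genes 0%, 0.0146% and 0.0109% passed with adjustment in control, day 2 and day 5 samples, and 1.70%, 3.86% and 2.34% had an unadjusted p under 0.05. The time*genotype interaction passed for 0 of 10 genes and for 0% of all genes, and 2.11% of all genes but 0 of 10 members had an unadjusted p under 0.05, with 0.108 for *Reg3b* as the smallest. The deleted gene *Nfil3* was itself among those that passed neither in control DRGs nor in the interaction. Both tests use the KO controls, whose *Nfil3* values were 2.94, 3.80, 4.37 and, in KO control replicate 4, 7.59. WT controls had 8.44 to 9.03. These tests can thus miss real differences, and not passing does not show that a gene was unchanged. The study reported a small set of genes that differed, from SAM and the limma interaction.

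**Figure D4:**
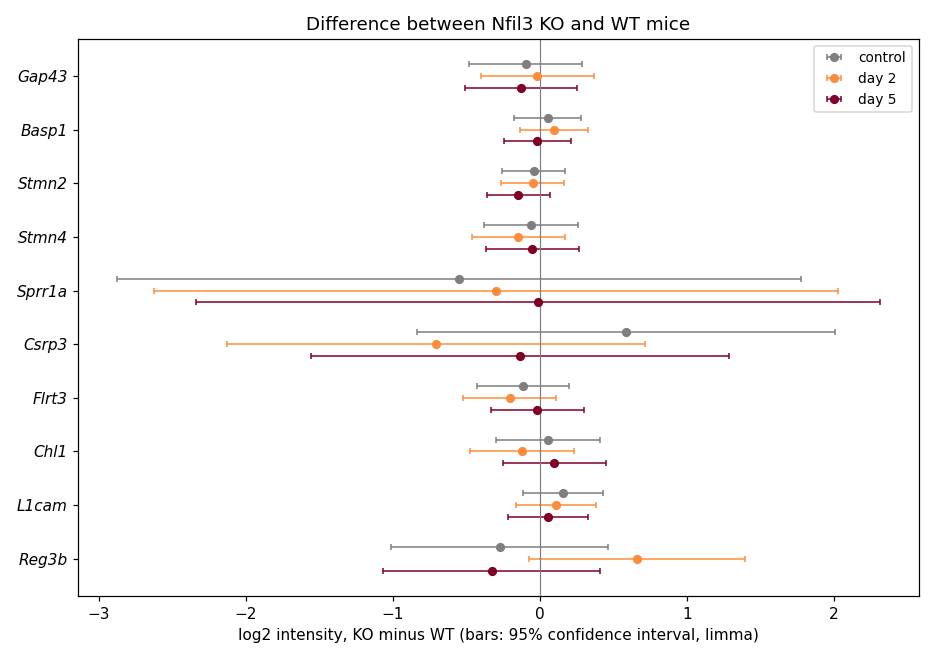
Log2 intensity of KO minus WT mice (horizontal axis) for each gene in control, day 2 and day 5 DRGs, with 95% confidence intervals from limma. All intervals include 0, with those of *Stmn2* the narrowest and those of *Sprr1a*, *Csrp3* and *Reg3b* the widest.

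For *Gap43*, *Basp1*, *Stmn2*, *Stmn4*, *Flrt3*, *Chl1* and *L1cam* the 95% confidence intervals of all KO minus WT differences lay between -0.52 and 0.45, by their brightest probes. The *Gap43* differences were -0.10 (control), -0.02 (day 2) and -0.13 (day 5), the last with an interval from -0.51 to 0.25. *Sprr1a* was -0.55, -0.30 and -0.01, with wide intervals that lay between -2.88 and 2.31. Without KO control replicate 4 its control difference was -1.80 and again did not pass. With only the controls that shared an array with a control, the standard error of the *Sprr1a* difference at day 2 and day 5 fell from 1.11 to 0.25 with the same differences, and the test again did not pass (limma adjusted p = 0.9999). At day 2 *Reg3b* was above background in 2 of 4 KO and 0 of 4 WT samples. Its fitted level was 1.58-fold higher in KO, with overlap (unadjusted p = 0.0758, adjusted p = 0.9999 in limma), and this fold is no minimum. *Csrp3*, with 2 WT and 2 KO samples above background, had a KO minus WT difference of -0.71 at day 2 (interval -2.13 to 0.71). The second, dim probe of *Stmn2* had a fitted level 1.76-fold higher in KO than in WT controls, without overlap (unadjusted p = 0.00125, adjusted p = 0.9999 in limma). Only 1 of 4 KO and 0 of 4 WT controls were above background, so this fold is no minimum. At day 2 the fitted level of this probe was 1.39-fold higher in WT (2 of 4 and 0 of 4 samples above background, unadjusted p = 0.0414, adjusted p = 0.9999 in limma).

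Genes of the same pathways, from lists put together with earlier results of these data known, did not all move with the members. Of 35 further genes of the growth cone and cytoskeleton, 16 rose and 6 fell in the lesion test, with a median change of 0.18 against -0.02 over all genes. In all 62.9% of this list passed, where 26.3% of all genes passed and 11.5% passed and were higher. *Tubb6*, a beta tubulin, changed most (3.01 by day 2, 3.44 by day 5, over both genotypes, limma adjusted p = 1.59e-13). It was followed by *Marcksl1*, a relative of GAP43 and BASP1 in the control of actin at the membrane (0.89 and 1.34), the actin bundler *Fscn1* (1.08 and 1.09) and the cortical actin protein *Cttn* (0.98 and 0.84), all with limma adjusted p at most 3.15e-05.

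Of 21 adhesion molecules of axons, 6 rose and 8 fell, with a median of -0.01. Thus 66.7% of this list passed the lesion test, against 26.3% of all genes. *Sdc1*, a heparan sulfate proteoglycan (2.49 and 2.96), the integrin subunits *Itga7*, a laminin receptor (1.96 and 2.02), and *Itgb1* (1.01 and 0.82) rose, and the contactin *Cntn6* fell (-1.15 and -1.08, limma adjusted p = 0.00121). The L1 family members *Nrcam* and *Nfasc* did not pass (adjusted p = 0.155 and 0.373).

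Of 29 close relatives of the 10 genes, 28 were on the array, of which 9 rose and 2 fell, with a median of 0.21. Here 39.3% passed the lesion test, against 26.3% of all genes. *Reg1*, a secreted lectin of the family of *Reg3b*, was the foremost (2.13 by day 2, 3.92 by day 5, limma adjusted p = 7.62e-12), and *Reg3g* also rose (0.79 and 1.19, adjusted p = 0.0130). *Sprr1b*, the nearest relative of *Sprr1a* on the list, rose by 0.49 and 1.56 (adjusted p = 1.69e-04) and was above background in 9 of 24 samples, and *Marcksl1* is also on this list. The stathmins *Stmn1* and *Stmn3* changed by 0.07 and 0.28 (adjusted p = 0.00826) and by -0.12 and -0.09 (adjusted p = 0.184). Members of gene families such as *Sprr* and *Reg* share sequence, and signal shared between their probes was not tested. Over the 76 distinct genes of the 3 lists, 0 passed in KO minus WT at any time or in the interaction by limma, and 0, 2 and 0 had an unadjusted p under 0.05 in control, day 2 and day 5 DRGs and 2 in the interaction.

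**Figure D5:**
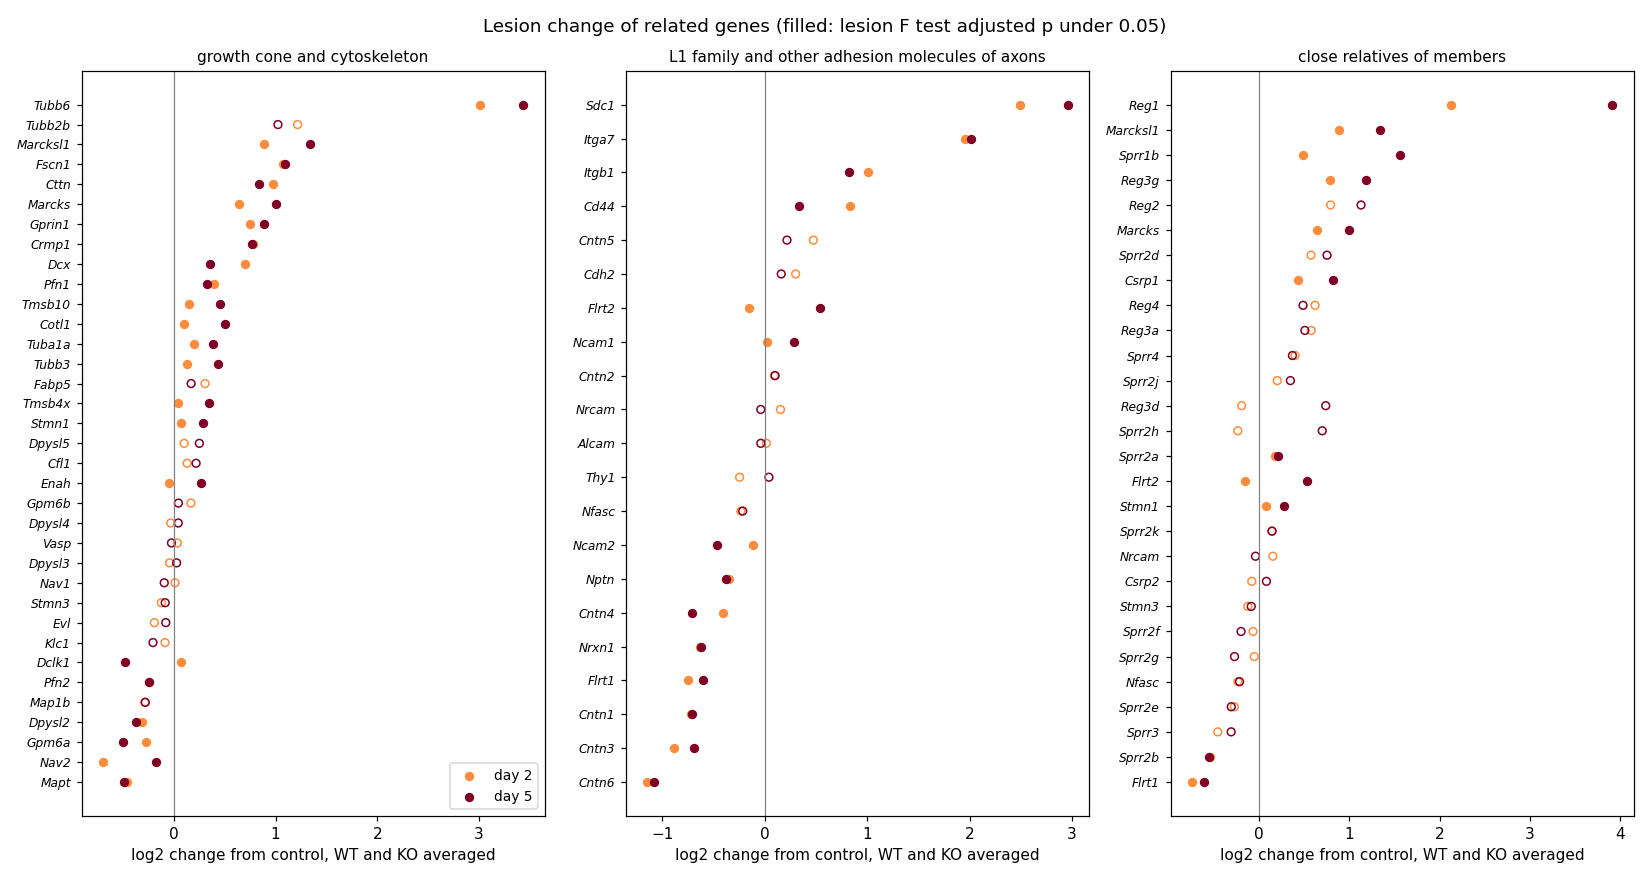
Log2 change from control (horizontal axis) at day 2 (orange) and day 5 (dark red), averaged over WT and KO, of the genes of the 3 lists, with filled points for genes that passed the lesion F test. *Tubb6*, *Sdc1* and *Reg1* lead their lists, and 22 of 35, 14 of 21 and 11 of 28 genes are filled.

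Markers of cell types moved with the lesion as well. For comparison, 26.3% of all genes passed the lesion F test, and 11.5% passed and were higher. Of 11 neuronal markers 9 fell and *Tubb3* rose (0.43 at day 5, limma adjusted p = 2.74e-06), and the median over the 11 was -0.50 at day 2 and -0.62 at day 5, the opposite direction to the 8 members that rose. All 8 macrophage markers rose, and their summed intensity was 1433 to 2533 in WT controls, 2294 to 3697 at day 2 and 5785 to 7056 at day 5, and 1352 to 2446, 1956 to 3403 and 4752 to 6407 in KO mice. The part of the cell types in the changes of the 10 genes was not tested.

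For each of the 8 genes above background in all samples, the other genes with the most similar profile were found over the 6 group means, by the root mean square difference after each profile's own mean was taken off. *Stmn4* was nearest to *Tubb6* (0.08) and *Sema6a* (0.10), *Flrt3* to *Sox11* (0.10), a transcription factor induced by axon injury, and *Star* (0.12), *Chl1* to *Tnik* and *Mbl2* (0.05 and 0.06), *Gap43* to *F13a1* (0.08) and an unnamed probe (0.08), *Basp1* to *Wrnip1* and *H3f3b* (0.03 each), *Stmn2* to *Tsc22d1* (0.02) and *Efemp1* (0.03), and *L1cam* to *Rnmtl1* and an unnamed sequence (0.02 each). *Sprr1a* had no near profile. Its nearest were *Atf3*, an injury-induced transcription factor, at 0.96, and *2010005H15Rik* at 0.97. *Atf3* rose by 5.14 and 5.30 in WT and by 5.10 and 5.32 in KO mice, so that it changed little from day 2 to day 5.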

How the data were processed

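RNA of 24 DRG samples was measured on 12 Agilent 4x44K arrays on 3 slides, with a different sample in each channel. The authors read out the scans in Feature Extraction (10.7.3.1 in the submitters' processing notes) and deposited foreground and background intensity values per spot and channel, not normalized, with flags for outliers and signal over background. From these, as in the study's methods, the mean foreground was corrected for the median background by the Edwards method and quantile normalized over the 24 channels on a log2 scale. Control spots and outlier spots were left out (417 missing probe values, 0 of them in the 10 genes) and spots of a probe were averaged. The deposited processed signals were an alternative only.

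The 6 group means were fitted over all 24 samples with lmFit and eBayes (R 4.3.3, limma 3.58.1, statmod 1.5.0), and p-values were adjusted by Benjamini-Hochberg over all probes, threshold 0.05. A gene was represented by its brightest probe. Where a probe was above background in no sample of a group, the change is a bound: the mean of the brighter group against, per array of the other, the higher of the probe's own signal and the lowest signal well above background. Bounds hold for the Edwards correction only. They are less firm where only some samples of the brighter group were above background. The dim *Stmn2* probe, *Csrp3* and the day 2 changes of *Reg3b* are given by their fitted differences instead, apart from the medians with bounds. Levels of different probes were not compared. The named genes are the 10 genes, *Nfil3*, the 4 genes of each list with the largest lesion change past the test, and the 2 genes nearest in profile; others were named after their values were seen. The genes and lists were chosen with earlier results of these data known. Symbols of 3 listed genes (*Map1b*, *Sprr2a*, *Sprr2j*) were matched through synonyms. The scripts were tested on simulated data. Precision is limited by 4 samples per group. The alternatives were other background corrections, processed signals, loess with Aquantile normalization, the median foreground, a filter on dim probes, outlier spots not removed, other ways to join probes, dye, slide, replicate number, array or array partner as a term, an intensity trend, controls without a lesioned array partner, and each sample left out.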

Additional observations from a re-analysis of the deposited data

Results flagged for a closer look

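Among 60 sets of 4 values (10 genes in 6 groups), 2 held a sample far from the others by Dixon's test, which chance alone does in about 1 in 20 sets. *Stmn2* in KO control replicate 2 had a log2 intensity of 14.18, above 13.94 to 13.98 in the other KO controls. Without it the KO day 2 change of *Stmn2* was 0.36 and passed (limma adjusted p = 0.0485). *Chl1* in KO day 2 replicate 4 had 12.95, above 12.10 to 12.18 in the other samples of its group. No gene, *Nfil3* included, passed a test of the difference in lesion change between KO and WT mice.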

How the results depend on the processing

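No result of the 10 genes reversed. The counts of genes changed by the lesion, in WT and in KO mice at either day, and of genes that differed between KO and WT or in the interaction stayed within 1.5 times of the reported counts under all alternatives. Within that range the day 2 counts still grew. Processed signals added *Stmn2* and *Csrp3* in WT mice (limma adjusted p = 0.00166 and 0.0209). In KO mice they added *Stmn2*, *Csrp3* and *Reg3b* (limma adjusted p = 0.0102, 0.0201 and 0.0339). The count for day 5 minus day 2 in WT mice was 1, and became 3 with no background correction, normexp, processed signals, an intensity trend, slide as a block or a random effect of array, and 2 with median foreground, the filter on dim probes, any probe of a gene, dye as a covariate or only controls that share an array with a control. In KO mice it was 2, and became 1 with median foreground or loess and Aquantile normalization, and 3 with processed signals or slide as a block, through *Gap43* (limma adjusted p = 0.0499 and 0.00304), or with only controls that share an array with a control, through *Sprr1a* (adjusted p = 8.82e-04). With each sample left out in turn the counts ranged from 1 to 3 in WT and from 1 to 2 in KO mice. The WT count was 3 without WT day 2 replicate 2, and 2 when KO day 2 replicate 1, 2 or 4 was left out. The KO count was 1 without KO day 5 replicate 1, 2 or 3 or KO day 2 replicate 2, 3 or 4, each time through *Reg3b* (limma adjusted p between 0.0509 and 0.102). The cause was not tested.

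For single genes, 1295 of 1350 results under other settings and 2139 of 2160 with a sample left out kept their side of the threshold, 51 and 15 gained a call and 4 and 6 lost it. Gains were those of *Gap43*, *Stmn2*, *Csrp3*, *Chl1*, *Sprr1a* and *Reg3b*. *Stmn2* in KO mice at day 5 also lost its call with its probes averaged (0.31, limma adjusted p = 0.165). Replicate numbers did not pair the samples: same-numbered samples correlated between -0.59 and 0.59, over 0.1 in 14 of 36 pairs, and 8 of 24 samples correlated best with their own number. The replicate block changed 1 call, *Reg3b* in KO mice at day 2 (fitted difference 1.08, limma adjusted p = 0.0453). Depth on arrays is signal over background, and it limits *Csrp3*, *Reg3b* before day 5 and the dim probes of *Stmn2* and *Chl1*.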
